A study of Mus musculus with 27 samples.

Results

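Surface molecules by which B cells show activation and costimulate or restrain T cells were followed here: Cd80, Cd86, Cd69, Cd83, Cd40, Icosl, Cd44, Fas, Il2ra and Cd274. They were taken by gene symbol, and all 10 were found among the 54532 genes of the count tables of both RNA-seq experiments. The study asked how disulfiram (DSF), a drug that inhibits aldehyde dehydrogenase, acts on B cell responses to a T-independent stimulus, lipopolysaccharide (LPS), and a T-dependent one, IL-4+anti-CD40. B cells of wild-type C57BL6 mice were enriched from spleen by negative selection and kept in culture for 3 h. In the first experiment there were 5 groups of 4 libraries, namely unstimulated cells, LPS, LPS+DSF, IL-4+anti-CD40 and IL-4+anti-CD40+DSF. The second experiment had 1 library for each of these conditions and 1 library for each stimulus with ibrutinib, an inhibitor of Bruton's tyrosine kinase. DSF and ibrutinib were used at 1 μM and cells without inhibitor received DMSO, the vehicle. The paper describes the cells with DSF or ibrutinib as pre-treated, and the RNA-seq as made 3 h after stimulation. It gives no length for the pre-treatment. No library had DSF without a stimulus.

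B cells that meet a stimulus become able to speak to T cells. CD80 and CD86 engage CD28 on T cells, ICOS ligand engages ICOS, and CD40 receives the signal of CD40 ligand, while PD-L1, the product of Cd274, restrains T cells through PD-1. CD69 keeps lymphocytes in the tissue by drawing S1P receptor 1 from the surface, CD83 stabilizes CD86 and MHC class II there, CD44 binds hyaluronan, FAS is a death receptor, and IL2RA is the α chain that gives the IL-2 receptor its high affinity.

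Total counts were between 17804851 and 23632992 in the first experiment and between 16049295 and 24619776 in the second. Levels are given as CPM, counts scaled to library size with edgeR's trimmed mean of M values (TMM), a scale that does not compare genes of different length. All 10 B cell markers checked had at least 10 counts in every library, and their summed level was between 8062 and 19183 CPM in the first experiment. In bulk libraries, fewer cells of a type and less RNA per cell cannot be told apart. The study describes the libraries of a group as independent, but no source used here says that each came from its own mouse, so the p-values measure the spread between these libraries.

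Before any comparison, the 4 unstimulated libraries fell into 2 pairs, libraries 1 and 2 against libraries 3 and 4. Of 10778 genes with enough counts, 11% had a range of 2-fold or more over these 4 libraries, against 0.307% of genes in the LPS libraries. All 10 members separated the pairs without overlap. The share of all genes that did so was not computed, and the pairs were seen in these same libraries. The separation is therefore not read as a trait of the members. Il2ra was 68.7 and 68.5 CPM in libraries 1 and 2 and 4.58 and 4.23 CPM in libraries 3 and 4, a 15.6-fold ratio of the pair means. Cd86 was 182 and 178 CPM against 29.7 and 30.8 CPM, a ratio of 5.96, and the ratio was 2.45 for Cd83, 1.89 for Cd44, 1.63 for Cd80 and 1.62 for Fas. The other members went the opposite way: Icosl was 1.88-fold, Cd69 1.47-fold, Cd40 1.24-fold and Cd274 1.18-fold higher in libraries 3 and 4. Markers of other cells moved too. The summed level of 10 macrophage and monocyte markers was 585 and 568 CPM in libraries 1 and 2, 620.3 and 642 CPM in libraries 3 and 4, and 132 to 263 CPM in the stimulated libraries. Genes of that list differed in opposite directions, with Lyz2 at 359.6 CPM in the first pair and 536 CPM in the second and Cd14 at 30.7 and 1.60 CPM. Cr2, which encodes a complement receptor of mature B cells, was 103 and 869 CPM. The part of these cells in the results was not tested. The IL-4+anti-CD40 libraries also formed pairs, with Cd274 at 78.1 and 83.4 CPM in libraries 1 and 2 and at 145 and 151 CPM in libraries 3 and 4. With IL-4+anti-CD40+DSF some members, but not all, differed by pair too. Cd69 was 604 and 580 CPM in libraries 1 and 2 of that group and 732 and 709 CPM in libraries 3 and 4. No fit left out a pair of that group. The members' values that rest on the unstimulated or the IL-4+anti-CD40 group were therefore computed without a pair as well. Those of other genes were not. Leaving out a pair was chosen after seeing the data. With 1 pair alone the spread between pairs does not enter, so a call made that way does not measure it. In the unstimulated group, chi-square per gene was 2.86 and 6.64 within pairs and 84.8 to 90.7 between them.

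**Figure D1:**
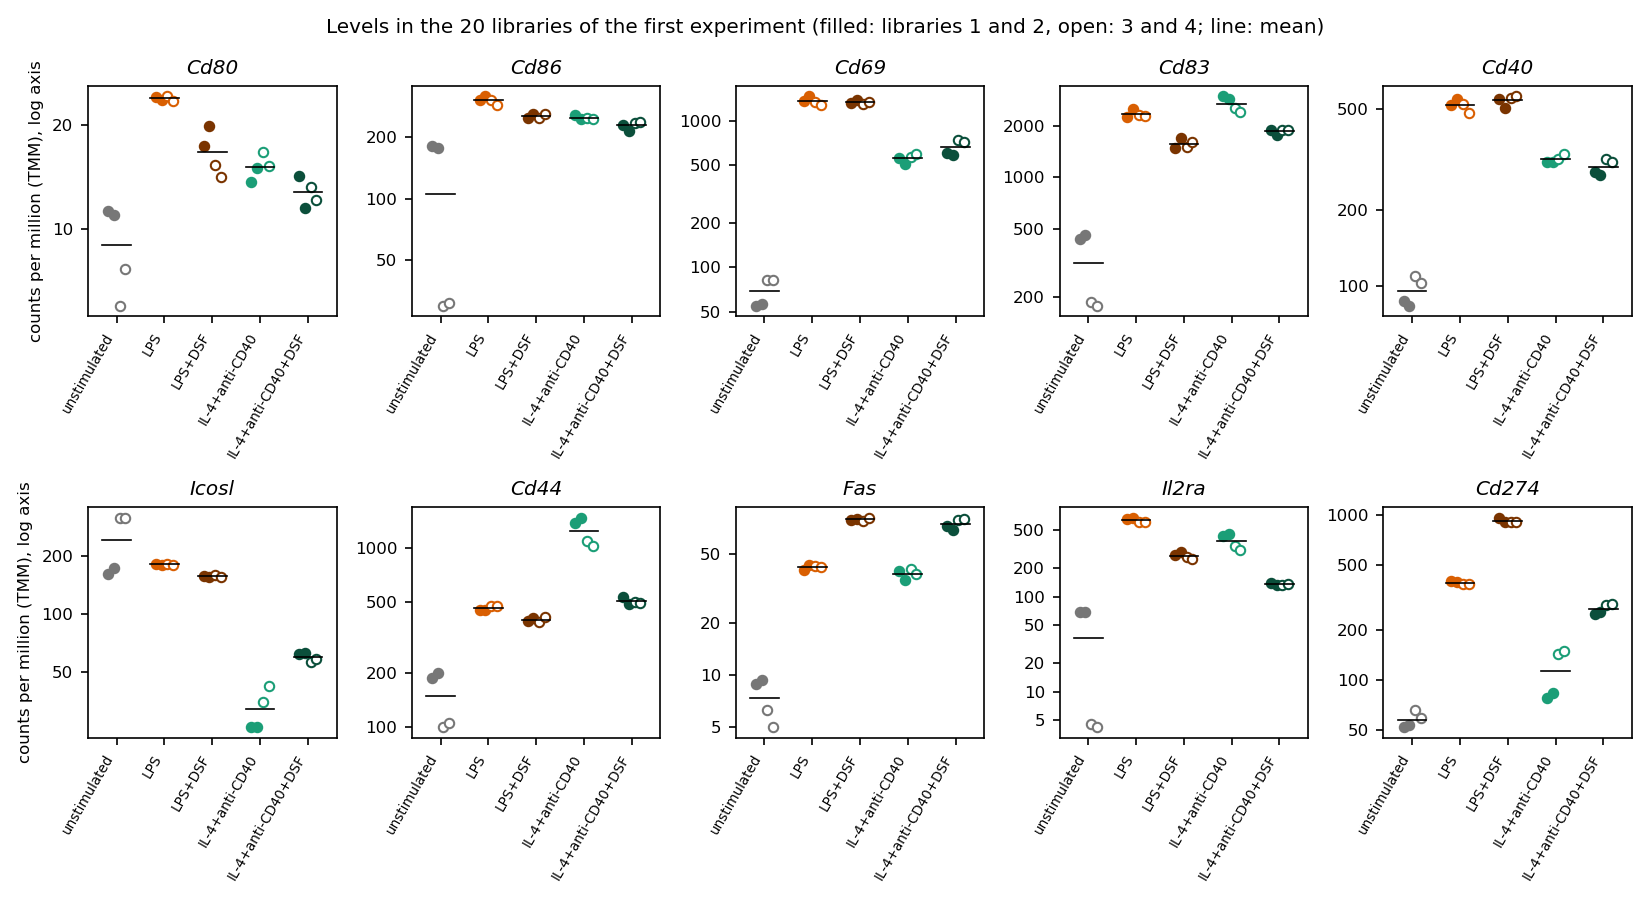
Levels of the 10 members in each of the 20 libraries of the first experiment, in CPM on a log axis, with a line at the group mean. Filled points are libraries 1 and 2 and open points libraries 3 and 4. The pairs stand apart in the unstimulated group, while the 4 LPS libraries lie close together; for Icosl they span 179.6 to 183 CPM.

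LPS raised 9 of the 10 members against unstimulated cells, and none was lower (edgeR's quasi-likelihood test, Benjamini-Hochberg adjusted p under 0.05). Of all 14477 genes tested, 29.6% were called higher and 33.3% lower, and the median log2 fold change was 2.47 for the members and -0.05 for all genes. Scaling by total counts moved the median gene by -0.23 on the log2 scale, and the share of called genes that were higher from 47.1% to 31.2%. IL-4+anti-CD40 raised 8 members and lowered 1, Icosl, where 30.4% and 32.1% of 14433 genes were called higher and lower. For the median gene, the total-count scaling changed that comparison by -0.15, and the higher share of calls from 48.6% to 38.3%. The members' median there was 2.11. Without regard to the test, the libraries of LPS and unstimulated cells did not overlap for 9 members, all higher, where 29.5% and 31.4% of all genes were higher and lower without overlap. For the other stimulus that held for 9 members higher, Cd86 among them, and 1 lower, against 27.8% and 32.3% of genes.

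Cd69, a marker of early activation, rose under both stimuli. Its level was 54.8, 56.6, 82.4 and 81.8 CPM in unstimulated cells and 1355, 1458, 1328 and 1285 CPM with LPS. Every LPS library was far above every unstimulated one. The log2 fold change was 4.30 ± 0.17 (SE), or 19.7-fold, with an adjusted p of 3.44e-07. With IL-4+anti-CD40 the 4 libraries held 553, 508, 564 and 588 CPM, a log2 fold change of 3.06 ± 0.16. Cd69 was therefore lower under IL-4+anti-CD40 than with LPS, by 2.46-fold (adjusted p 7.27e-09). Cd69 lies at chr6:129267325-129275436 on the minus strand of mm10 (ENSMUSG00000030156), in a chromosome region that also encodes other C-type lectin-like receptors.

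Cd83 was the most abundant member in every group on the scale per gene length, the authors' FPKM, with a median of 120.4 in unstimulated cells, 877 with LPS and 1068 under IL-4+anti-CD40. In CPM it was 435, 461, 188 and 178 in unstimulated libraries and 2267, 2494, 2327 and 2276 with LPS. With IL-4+anti-CD40 it was 2971, 2855, 2557 and 2399.9 CPM. Both stimuli raised it without overlap, by 2.90 ± 0.33 and 3.15 ± 0.34 on the log2 scale (adjusted p 8.98e-05 and 5.83e-05). The gene is at chr13:43784775-43803132 (ENSMUSG00000015396). Between the stimuli Cd83 was 0.20 ± 0.07 log2 units higher under IL-4+anti-CD40 (adjusted p 0.0432). The libraries overlapped there, and the call was lost in 5 of 8 fits that left out 1 library (LPS library 1, 3 or 4, or IL-4+anti-CD40 library 1 or 2, adjusted p 0.0703 to 0.11) and without IL-4+anti-CD40 libraries 1 and 2 (adjusted p 0.196).

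Il2ra, the member with the widest spread among unstimulated libraries, rose under both stimuli. From the 4 unstimulated values given above it reached 655, 672, 614 and 606 CPM with LPS and 432, 457, 343 and 310.2 CPM under IL-4+anti-CD40. Every stimulated library was above every unstimulated one. The log2 fold change was 4.13 ± 0.92 with LPS (adjusted p 0.00392) and 3.46 ± 0.89 under IL-4+anti-CD40 (adjusted p 0.00771). Set against unstimulated libraries 3 and 4 alone the values were 7.20 and 6.52, and against libraries 1 and 2 alone 3.22 and 2.52, all past the threshold. With IL-4+anti-CD40 libraries 1 and 2 left out, the call against unstimulated cells was lost (3.22, adjusted p 0.056). Its partner chain in the IL-2 receptor Il2rg, the common γ chain, rose by 0.80 ± 0.07 and 0.27 ± 0.07 on the log2 scale with the respective stimuli. Il2rb, the β chain, was 8.26 CPM in unstimulated cells and fell by 1.30 ± 0.29 with LPS and by 0.75 ± 0.28 under IL-4+anti-CD40. The Il2rb libraries overlapped in the second case (adjusted p 0.0422).

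Of the ligands for CD28, Cd80 was the member of lowest level per length by group median, with an FPKM of 2.48 in unstimulated cells and 6.33 with LPS. In unstimulated libraries 3 and 4 Il2ra was lower still, at 0.79 and 0.72 FPKM against 1.59 and 2.01 for Cd80. The CPM of Cd80 were 11.3, 10.98, 5.97 and 7.66 in unstimulated cells and 24.1, 23.7, 24.2 and 23.5 with LPS. IL-4+anti-CD40 gave 13.7, 15.1, 16.7 and 15.2 CPM, between those groups and overlapping neither. Cd80 rose by 1.41 ± 0.19 log2 units with LPS (adjusted p 0.000224) and by 0.81 ± 0.20 under IL-4+anti-CD40 (adjusted p 0.00636). The second call was lost without IL-4+anti-CD40 libraries 3 and 4, at 0.77 and an adjusted p of 0.0544. Cd86, the other ligand, was 305, 318, 307 and 289 CPM with LPS and 257, 246, 249.6 and 246 CPM under IL-4+anti-CD40. All stimulated libraries were above all unstimulated ones. The log2 fold change was 1.54 ± 0.59 with LPS (adjusted p 0.0465) and 1.30 ± 0.58 under IL-4+anti-CD40, which did not pass the threshold (adjusted p 0.0763). Against unstimulated libraries 3 and 4 alone these were 3.36 and 3.11, and against libraries 1 and 2 alone 0.76 and 0.49, all past the threshold. The LPS call was lost when unstimulated library 3 or 4, or any 1 LPS library, was left out (adjusted p 0.0648 to 0.0857). It was also lost with total counts (adjusted p 0.088). Cd80 and Cd86 lie on chromosome 16, at chr16:38455561-38496335 (ENSMUSG00000075122) and chr16:36603869-36666081 (ENSMUSG00000022901). March1, which encodes a ubiquitin ligase that removes CD86 and MHC class II from the surface, went from 172 CPM in unstimulated cells to 22.4 CPM with LPS and 10.1 CPM under IL-4+anti-CD40, log2 changes of -2.94 ± 0.32 and -4.05 ± 0.34.

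The rises with LPS of the other members were also called with either unstimulated pair alone, where the spread between pairs does not enter. Against libraries 3 and 4 and against libraries 1 and 2 respectively, the log2 fold change was 4.08 and 4.61 for Cd69, 3.71 and 2.39 for Cd83, 2.32 and 2.61 for Cd40, and 1.84 and 1.11 for Cd80. It was 2.20 and 1.25 for Cd44, 2.92 and 2.20 for Fas and 2.67 and 2.88 for Cd274. Under IL-4+anti-CD40 these members were likewise called with either pair, at 2.82 and 3.34 for Cd69, 3.95 and 2.62 for Cd83, 1.65 and 1.92 for Cd40, and 1.22 and 0.47 for Cd80. Cd44 was at 3.67 and 2.71, Fas at 2.83 and 2.10 and Cd274 at 0.94 and 1.14.

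**Figure D2:**
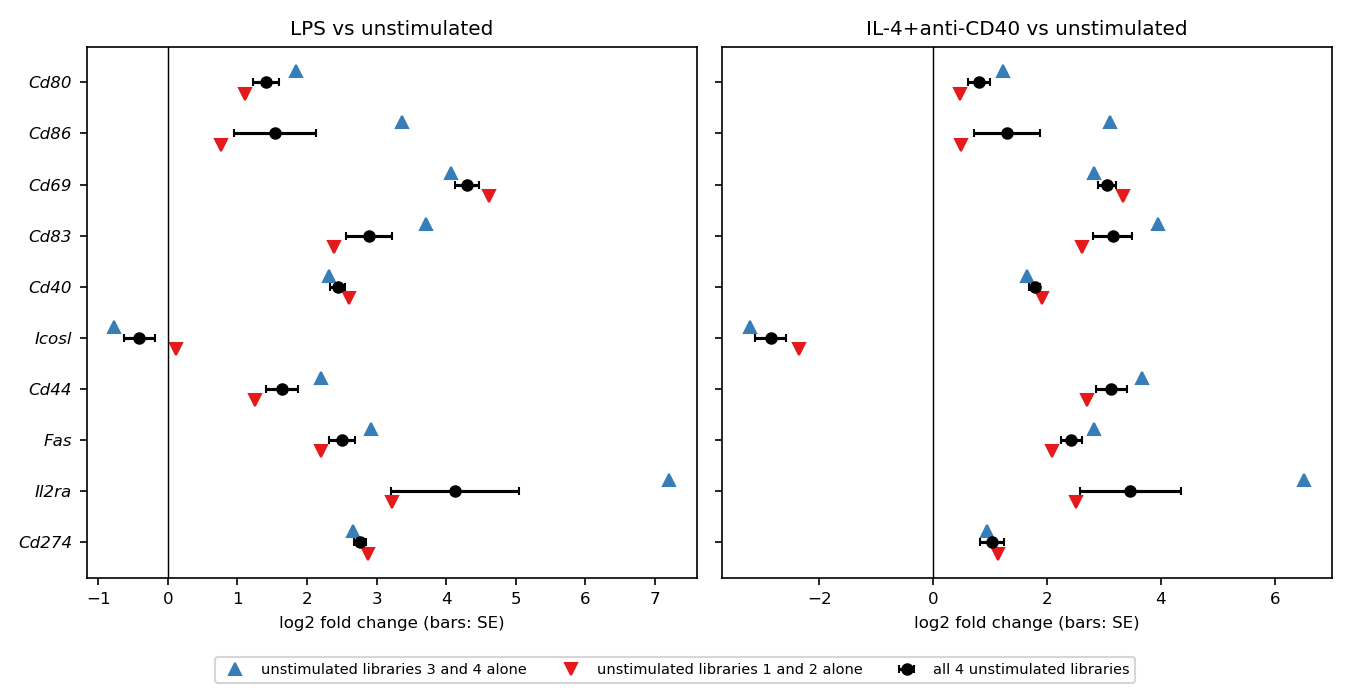
Log2 fold changes of the members against unstimulated cells, for LPS (left) and IL-4+anti-CD40 (right). Black points with SE bars use all 4 unstimulated libraries, and triangles use 1 pair of them alone. Il2ra and Cd86 move most between the pairs, from 3.22 to 7.20 and from 0.76 to 3.36 with LPS, and Icosl changes sign there.

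Icosl, the ligand of ICOS on helper T cells, set the stimuli apart most. It was 162, 172, 315 and 314 CPM in unstimulated cells, 182, 180.4, 183 and 179.6 CPM with LPS, and 25.9, 25.9, 35.1 and 42.2 CPM under IL-4+anti-CD40. The LPS libraries lay between the unstimulated pairs, whereas the IL-4+anti-CD40 libraries were below all others. Icosl fell by 2.85 ± 0.28 log2 units under IL-4+anti-CD40, or 7.21-fold (adjusted p 3.58e-05), and by 3.22 and 2.35 against the second and the first unstimulated pair. With LPS the difference from unstimulated cells did not pass the threshold (-0.41 ± 0.23, adjusted p 0.143). It was -0.76 against unstimulated libraries 3 and 4 and 0.12 against libraries 1 and 2, past the threshold in opposite directions, and it also passed with total counts (-0.62, adjusted p 0.0268) and without unstimulated library 1 (-0.54, adjusted p 0.036). In the direct comparison, which used no unstimulated library, Icosl was 5.64-fold lower under IL-4+anti-CD40 than with LPS (-2.50 ± 0.13 on the log2 scale, adjusted p 3.28e-08).

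Cd40, the receptor through which one of the stimuli acts, was 87.2, 83.4, 109.6 and 103 CPM in unstimulated cells. It rose to 518, 548, 526 and 483 CPM with LPS and to 309, 309, 319 and 333 CPM with the antibody to CD40 and IL-4. The 3 groups did not overlap. The log2 fold changes were 2.44 ± 0.10 and 1.78 ± 0.10 (adjusted p 4.74e-07 and 2.46e-06), and IL-4+anti-CD40 was 1.64-fold below LPS (adjusted p 3.09e-07). Cd274 was 52.1, 53.5, 65.9 and 58.9 CPM without stimulus and 396, 395, 382 and 381 CPM with LPS, a 6.76-fold rise. The rise under IL-4+anti-CD40 was 2.05-fold (1.04 ± 0.21 on the log2 scale, adjusted p 0.00248), at 1.43 with libraries 3 and 4 alone and 0.58 with libraries 1 and 2 alone. Both values passed the threshold. Cd274 shares 511 of its 3622 exonic bases with an antisense gene, and the strand setting of the counting is not given in the sources used here, so reads of the 2 genes cannot be told apart there.

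Cd44, the hyaluronan receptor, ran the other way between the stimuli. Its levels were 189, 201, 99.8 and 106 CPM in unstimulated cells, 451, 452, 478 and 474 CPM with LPS, and 1387, 1478, 1105 and 1028 CPM under IL-4+anti-CD40. The groups did not overlap. Cd44 rose by 1.64 ± 0.23 log2 units with LPS and by 3.13 ± 0.27 under IL-4+anti-CD40 (adjusted p 0.000286 and 1.92e-05), and the second stimulus gave 2.69-fold more than the first (1.43 ± 0.11, adjusted p 5.92e-07). Fas did not separate the stimuli: it was 40.1, 43.3, 42.4 and 42.0 CPM with LPS and 39.5, 35.1, 40.8 and 38.3 CPM under IL-4+anti-CD40. Against 8.90, 9.39, 6.30 and 5.00 CPM in unstimulated cells these were rises of 5.67-fold and 5.38-fold (adjusted p 7.86e-06 and 1.15e-05). The difference between the stimuli was -0.13 ± 0.06 log2 units and did not pass the threshold (adjusted p 0.114). It passed under IL-4+anti-CD40 libraries 1 and 2 alone (adjusted p 0.043). Fasl, its ligand, was at 0.24 CPM or less on average in each of these 3 groups and was too low to be tested.

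In the direct comparison of the stimuli without DSF, 2 members were higher under IL-4+anti-CD40, 7 were lower and Fas was not called, where 17.3% and 22.3% of 14078 genes were called higher and lower. Scaling by total counts moved the median gene by 0.13 and the higher share of calls from 43.7% to 66.0%, and the 9 members were called in the same directions with it. With DSF present in both groups the counts of members were again 2 higher and 7 lower, with 23.3% and 21.8% of 14352 genes called (median gene 0.13, higher share from 51.7% to 71.3% with total counts). When a pair of IL-4+anti-CD40 libraries was left out, the difference without DSF was -1.39 or -2.27 for Cd274, -2.23 or -2.81 for Icosl, 1.20 or 1.63 for Cd44 and -0.96 or -0.52 for Il2ra, all called. Without overlap, 1 member was higher and 7 lower without DSF (17.7% and 21.9% of genes), and 2 were higher and 6 lower with DSF (22.5% and 19%). With DSF in both groups, Icosl was 2.65-fold and Cd274 3.44-fold lower under IL-4+anti-CD40, and Cd44 was 1.25-fold higher.

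With LPS, 2 members were higher with DSF than without, 6 were lower, and Cd69 and Cd40 were not called, where 35.1% and 36% of 14154 genes were called higher and lower. The total-count scaling moved the median gene by -0.21 and the higher share of calls from 49.4% to 34.2%. With IL-4+anti-CD40, 3 members were higher, 6 were lower and Cd69 was not called, where 30.1% and 31.6% of 14275 genes were called (-0.15 and from 48.8% to 35.9% with total counts). Of the 10 members, 6 lower in each case is above the share of all genes called lower, while the share higher is below it with LPS and near it under IL-4+anti-CD40. Libraries did not overlap for 2 members higher and 6 lower with LPS, where that held for 30.3% and 33.8% of genes, and for 3 higher and 4 lower in the other case, where it held for 30.6% and 26.5%. The signed median log2 fold change of the members was -0.19 with LPS and -0.17 with the other stimulus, and 2 and 3 members in turn were called at a change of 2-fold or more. With all 20 libraries in one fit, Cd86, Icosl, Cd44 and Il2ra were no longer called with LPS (adjusted p 0.0595 for Il2ra), nor were Cd80, Cd86 and Cd40 under IL-4+anti-CD40. Markers moved with DSF as well. The summed level of the 10 B cell markers was 9825 to 10425 CPM with LPS and 8062 to 8825 CPM with LPS+DSF, and it was 10471 to 12064 CPM and 8954 to 9168 CPM under IL-4+anti-CD40 without and with DSF. Summed plasma cell markers were 168 to 188 CPM and 235 to 266 CPM in the LPS groups, and 147 to 164 CPM and 212 to 233 CPM in the others. The summed level of 13 T cell markers was 40.9 to 46.3 CPM with LPS and 49.1 to 54.9 CPM with LPS+DSF, and 46.9 to 53.0 CPM and 61.0 to 66.2 CPM in the other arm, with Cd3d averaging 0.31 to 0.48 CPM in these 4 groups. Dendritic cell markers summed to 60.5 to 65.8 CPM with LPS and 87.1 to 92.0 CPM with LPS+DSF, and overlapped in the other arm at 87.2 to 96.7 CPM and 84.5 to 89.0 CPM. Genes within these lists went in opposite directions with DSF under LPS. Zbtb46 rose from 48.0 to 76.4 CPM and Flt3 fell from 10.7 to 8.51 CPM. Of the T cell markers, Il7r rose from 7.32 to 20.2 CPM and Lck fell from 29.3 to 23.9 CPM. Among plasma cell markers, Prdm1 rose from 23.3 to 71.7 CPM and Sdc1 fell from 6.06 to 3.57 CPM. The sums therefore need not show more cells of these types. The macrophage and monocyte sum was 147 to 172 CPM with LPS and 132 to 145 CPM with LPS+DSF, and 160.5 to 193 CPM and 196 to 263 CPM under IL-4+anti-CD40 without and with DSF. Their part in the results was not tested.

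The promoters of 5 members whose response to DSF was large or depended on the stimulus are shown as RefSeq gives them on GRCm38, each with 250 bases before and 50 from the start site. Capitals mark matches, on either strand, to a set of 6 motifs of factors active in stimulated B cells or in oxidative stress: the NF-κB consensus, STAT6 (TTCNNNNGAA), STAT5 (TTCNNNGAA), AP-1 (TGANTCA), the NRF2 core (TGACNNNGC) and the interferon-stimulated response element (ISRE) consensus. They are, in order, chr2:11642542-11642841 (plus strand), chr2:102901616-102901915 (minus strand), chr10:78069118-78069417 (plus strand), chr19:34290409-34290708 (plus strand) and chr19:29367188-29367487 (plus strand).
Il2ra: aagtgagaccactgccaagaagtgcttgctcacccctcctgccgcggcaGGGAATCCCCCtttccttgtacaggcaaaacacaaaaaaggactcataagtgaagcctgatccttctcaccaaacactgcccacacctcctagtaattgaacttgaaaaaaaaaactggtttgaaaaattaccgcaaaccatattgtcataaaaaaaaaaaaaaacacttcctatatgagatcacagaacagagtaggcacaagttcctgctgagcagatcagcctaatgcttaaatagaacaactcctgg
Cd44: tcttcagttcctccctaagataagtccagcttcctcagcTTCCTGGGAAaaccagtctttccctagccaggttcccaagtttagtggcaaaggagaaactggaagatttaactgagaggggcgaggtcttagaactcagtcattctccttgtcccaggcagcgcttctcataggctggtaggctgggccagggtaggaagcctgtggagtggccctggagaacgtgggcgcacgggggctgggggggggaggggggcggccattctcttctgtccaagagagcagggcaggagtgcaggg
Icosl: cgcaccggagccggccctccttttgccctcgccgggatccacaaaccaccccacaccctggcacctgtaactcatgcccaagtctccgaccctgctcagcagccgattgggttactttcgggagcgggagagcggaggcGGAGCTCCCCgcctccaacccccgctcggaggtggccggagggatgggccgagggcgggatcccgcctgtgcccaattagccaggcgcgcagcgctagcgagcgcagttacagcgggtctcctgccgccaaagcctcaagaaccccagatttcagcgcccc
Fas: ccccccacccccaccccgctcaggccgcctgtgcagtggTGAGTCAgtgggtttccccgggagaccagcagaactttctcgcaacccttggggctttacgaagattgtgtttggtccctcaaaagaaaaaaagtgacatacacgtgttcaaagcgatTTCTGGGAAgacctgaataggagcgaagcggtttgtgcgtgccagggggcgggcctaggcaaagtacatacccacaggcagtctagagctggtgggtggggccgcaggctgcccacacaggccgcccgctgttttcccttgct
Cd274: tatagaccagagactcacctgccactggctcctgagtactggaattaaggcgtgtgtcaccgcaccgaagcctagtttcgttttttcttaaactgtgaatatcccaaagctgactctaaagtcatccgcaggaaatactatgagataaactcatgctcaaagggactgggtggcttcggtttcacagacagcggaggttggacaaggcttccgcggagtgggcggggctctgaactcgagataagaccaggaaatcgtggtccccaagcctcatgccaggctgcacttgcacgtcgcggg
The Il2ra window held 2 overlapping NF-κB matches, and the Icosl window 1 on the opposite strand. Of 32851 promoters of the same length, 8.46% held such a match. The Cd44 window held a STAT6 match (6.95% of promoters) and the Fas window a STAT5 match and an AP-1 match (8.3% and 7.81%). Sequences were at hand for 6 of the 10 members: the Cd80 window had 1 AP-1 match and the Cd274 window had no match to any of the 6 motifs. NRF2 core and ISRE matches, found in 12.4% and 3.44% of all promoters, were in none of these windows.

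Il2ra fell most with DSF. The LPS libraries with DSF held 276, 292, 262 and 249 CPM, less than any LPS library without it, and the IL-4+anti-CD40 libraries with DSF held 138, 131, 132 and 137 CPM. The fall was 2.34-fold with LPS (-1.22 ± 0.05 on the log2 scale, adjusted p 3.89e-17) and 2.99-fold under IL-4+anti-CD40 (-1.58 ± 0.11, adjusted p 1.34e-06). The difference between these responses was -0.35 ± 0.13 log2 units and did not pass the threshold (adjusted p 0.0844). It was -0.57 without IL-4+anti-CD40 libraries 3 and 4 (adjusted p 1.18e-05) and -0.09 without libraries 1 and 2 (adjusted p 0.489), and the call was also made without library 4 alone (-0.45, adjusted p 0.00597). Against IL-4+anti-CD40 libraries 3 and 4 alone the fall with DSF was -1.32 on the log2 scale, and against libraries 1 and 2 it was -1.79. Even with DSF, Il2ra was called higher than in unstimulated cells with LPS (2.87 ± 0.86, adjusted p 0.0143). With IL-4+anti-CD40 it was not (1.88 ± 0.83, adjusted p 0.0695), although it was against either unstimulated pair alone. Il2rg was slightly higher with DSF, by 0.13 ± 0.04 (with overlapping libraries) and 0.27 ± 0.04 log2 units, and Il2rb was not called.

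Cd274 and Fas rose with DSF under both stimuli. Cd274 was 957, 906, 910 and 903 CPM with LPS and DSF and 252, 259, 284 and 287 CPM under IL-4+anti-CD40 and DSF. In each case all libraries with DSF were above all those without. The rise was 2.39-fold with LPS (1.26 ± 0.04, adjusted p 4.72e-19) and 2.28-fold under IL-4+anti-CD40 (1.19 ± 0.19, adjusted p 0.00021). The second value was 0.83 against IL-4+anti-CD40 libraries 3 and 4 and 1.68 against libraries 1 and 2. The difference of the responses was -0.07 ± 0.20 (adjusted p 0.869), and with one or the other pair left out it was -0.42 or 0.42, past the threshold in opposite directions. Cmtm6, whose product keeps PD-L1 at the surface, changed little: it fell by 0.11 ± 0.04 log2 units with DSF under LPS and rose by 0.21 ± 0.05 under IL-4+anti-CD40.

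For Fas, DSF gave 78.4, 79.7, 77.1 and 80.4 CPM with LPS and 72.5, 68.1, 78.4 and 79.2 CPM under IL-4+anti-CD40. These levels did not overlap those without DSF. The log2 fold changes were 0.93 ± 0.05 and 0.90 ± 0.07 (adjusted p 5.22e-15 and 1.72e-06), and their difference was -0.03 ± 0.08 (adjusted p 0.849). Against unstimulated cells Fas was thus 10.6-fold higher with LPS+DSF and 10.1-fold higher under IL-4+anti-CD40+DSF. The gene lies at chr19:34290659-34327770 (ENSMUSG00000024778). Fadd, the adaptor that FAS needs to start cell death, was lower with DSF under both stimuli, with log2 fold changes of -1.39 ± 0.11 and -1.09 ± 0.15.

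**Figure D3:**
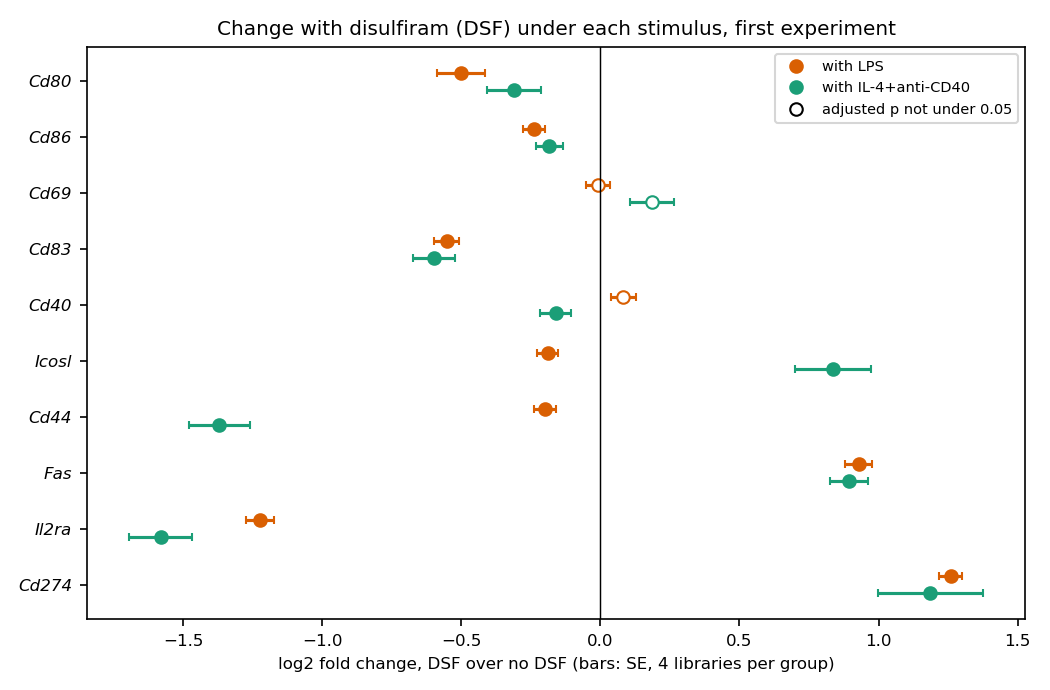
Log2 fold change with DSF for each member under LPS (orange) and IL-4+anti-CD40 (green) in the first experiment, with SE bars and 4 libraries per group. Open points did not pass an adjusted p of 0.05. Fas, Cd274, Cd83 and Cd86 lie close together for the 2 stimuli, whereas Cd44 (-0.20 and -1.37) and Icosl (-0.19 and 0.84) do not.

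Cd44 and Icosl responded to DSF differently with the 2 stimuli. Cd44 was 392, 407, 386 and 412 CPM with LPS+DSF and 533, 487, 501 and 496 CPM under IL-4+anti-CD40+DSF. It fell by 0.20 ± 0.04 log2 units in the first case and by 1.37 ± 0.11, or 2.58-fold, in the second (adjusted p 6.81e-05 and 2.19e-06). The test of the difference gave -1.17 ± 0.12 (adjusted p 2.33e-06), and -0.92 or -1.38 with a pair of IL-4+anti-CD40 libraries left out, where the fall itself was -1.12 or -1.57. In that test, 6.96% of 15130 genes were called higher and 7.92% lower, and of the members 1 was higher and 2 were lower. With total counts, the median gene there moved by 0.05, and the higher share of calls was 63.3% in place of 46.8%. Icosl was 158, 155, 159 and 156 CPM with LPS+DSF, below every LPS library, and 62.2, 62.8, 56.2 and 58.8 CPM under IL-4+anti-CD40+DSF, above every library without DSF. It fell by 0.19 ± 0.04 log2 units with LPS and rose by 0.84 ± 0.14 under IL-4+anti-CD40 (adjusted p 9.64e-05 and 0.000246), a difference of 1.03 ± 0.14 (adjusted p 3.56e-05) that was 0.79 or 1.33 with a pair left out, where the rise itself was 0.59 or 1.14. Icosl was 3.997-fold below unstimulated cells under IL-4+anti-CD40+DSF (-1.999 ± 0.23, adjusted p 7.09e-05). The genes are at chr2:102811141-102901665 (Cd44, ENSMUSG00000005087) and chr10:78069302-78083913 (Icosl, ENSMUSG00000000732).

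The CD28 ligands and Cd83 were lowered by DSF under both stimuli, by less than 2-fold. Cd83 was 1478, 1709, 1514 and 1611 CPM with LPS+DSF and 1888, 1758, 1885 and 1895 CPM under IL-4+anti-CD40+DSF, log2 fold changes of -0.55 ± 0.05 and -0.60 ± 0.08 without overlap (the second -0.46 or -0.72 with a pair of IL-4+anti-CD40 libraries left out). Cd80 was 17.4, 19.8, 15.3 and 14.2 CPM with LPS+DSF (-0.50 ± 0.09, adjusted p 1.57e-05) and 14.2, 11.5, 13.2 and 12.1 CPM under IL-4+anti-CD40+DSF. That second difference was -0.31 ± 0.10 (adjusted p 0.0165), with overlapping libraries, and was lost without libraries 3 and 4 of IL-4+anti-CD40 (adjusted p 0.0857), without library 3 alone (0.0523) and without library 2 of IL-4+anti-CD40+DSF (0.0532). Cd86 was 250.3, 259.99, 249 and 261 CPM with LPS+DSF and 229.9, 214, 235 and 237 CPM under IL-4+anti-CD40+DSF. These were below all libraries without DSF, at -0.24 ± 0.04 and -0.18 ± 0.05 log2 units (adjusted p 7.02e-06 and 0.0064). The differences between the responses under the 2 stimuli were 0.20 ± 0.13 for Cd80, 0.06 ± 0.06 for Cd86 and -0.04 ± 0.09 for Cd83, none past the threshold. March1 was not called with DSF, at -0.07 ± 0.09 and 0.37 ± 0.17 log2 units.

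Cd69 and Cd40 changed little with DSF in the first experiment. Cd69 was 1313, 1380, 1288 and 1346 CPM with LPS+DSF, overlapping the LPS libraries, and 604, 580.1, 732 and 709 CPM under IL-4+anti-CD40+DSF. The log2 fold changes were -0.01 ± 0.04 (adjusted p 0.852) and 0.19 ± 0.08 (adjusted p 0.0608). The second passed in some alternatives, with values from 0.20 to 0.24 without IL-4+anti-CD40 library 4 (adjusted p 0.0427), without library 1 or 2 of IL-4+anti-CD40+DSF (0.0469 and 0.0223) and with DESeq2's size factors (0.0388). With total counts, the LPS value was -0.22 (adjusted p 5.2e-05), close to the shift of the median gene. S1pr1, the receptor that CD69 draws from the surface, was 27.5 CPM with LPS and 108 CPM with LPS+DSF, and it was 39.8 and 151.5 CPM under IL-4+anti-CD40 without and with DSF. It was higher with DSF by 1.99 ± 0.06 and 1.87 ± 0.20 log2 units. Unstimulated cells held 272 CPM, more than any of these 4 group means. Each group was cultured separately, so a smaller fall and a later rise cannot be told apart. Klf2, a transcription factor known to drive S1pr1 expression, was at 48.3 to 54.9 CPM on average in the stimulated groups against 322 CPM in unstimulated cells, and DSF changed it by 0.01 ± 0.06 (not called) and -0.22 ± 0.05.

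Cd40 was 548, 507, 553 and 563 CPM with LPS+DSF and 281, 276, 317 and 309.8 CPM under IL-4+anti-CD40+DSF. Both sets overlapped those without DSF. With LPS the log2 fold change was 0.08 ± 0.04 and did not pass (adjusted p 0.104); it passed without LPS+DSF library 2 (0.11, adjusted p 0.0434) and turned to -0.13 with total counts (adjusted p 0.0133). With IL-4+anti-CD40 it was -0.16 ± 0.06 (adjusted p 0.026), lost without library 1 or 2 of IL-4+anti-CD40+DSF (adjusted p 0.0736 and 0.081) and without libraries 3 and 4 of IL-4+anti-CD40 (0.0752). The difference between the responses was -0.24 ± 0.07 (adjusted p 0.0378), and 10 of the 16 fits that left out 1 library lost that call (adjusted p 0.057 to 0.0898), as did total counts (0.0926) and DESeq2's size factors (0.0611).

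LPS+DSF had 8 members higher and 1 lower than unstimulated cells, where 34.3% and 37.3% of 14663 genes were called, and IL-4+anti-CD40+DSF had 6 higher and 1 lower, where 33.4% and 35.3% of 14678 genes were called. The lower one was Icosl in both comparisons, at -0.62 ± 0.22 with LPS+DSF, a call that was lost without unstimulated library 3 or 4 or any 1 LPS+DSF library (adjusted p 0.0647 to 0.0707). Scaling by total counts moved the median gene by -0.41 and -0.31 in these comparisons, and the higher share of calls from 47.9% to 29.7% and from 48.6% to 31.6%, and it ended the call of Cd80 with LPS+DSF (0.47, adjusted p 0.0876). Libraries did not overlap for any of the 10 members in either comparison, with 9 higher and 1 lower in each, where 33.7% and 34.8% of genes were higher and lower without overlap for LPS+DSF and 32.3% and 33% for IL-4+anti-CD40+DSF. Cd86 was called in neither (adjusted p 0.0777 and 0.114), although either unstimulated pair alone gave a call, and Cd80 and Il2ra were not called under IL-4+anti-CD40+DSF (0.51 ± 0.20, adjusted p 0.0513, for Cd80). Cd274 was 15.9-fold above unstimulated cells with LPS+DSF, the highest level of this gene in any group.

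In the second experiment, with 1 library per condition and so no test, each member's log2 ratio of the 2 stimuli without inhibitor to unstimulated cells had the same sign as in the first with all 4 unstimulated libraries. Of the members, 8 were at least 2-fold higher with LPS than in unstimulated cells, where 8.62% of 14275 genes were 2-fold higher and 9.88% lower. Against the same library, 7 were higher and 1 lower under IL-4+anti-CD40, where it was 10.7% and 13.7% of genes. Cd86 (0.60 and 0.72 on the log2 scale) was under 2-fold with both. Il2ra went from 32.4 CPM without stimulus to 404 CPM with LPS and 332 CPM under IL-4+anti-CD40. Icosl was 249, 191 and 51.5 CPM in these conditions. Cd69 had the opposite order from the first experiment, with 743 CPM with LPS and 1473 CPM under IL-4+anti-CD40.

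With DSF, several members were far lower there than with the stimulus alone. Il2ra was 15.4 CPM with LPS+DSF and 12.5 CPM under IL-4+anti-CD40+DSF, below its unstimulated level. It was 26.1-fold and 26.4-fold lower than with the stimulus alone, with log2 ratios of -4.71 (95% counting interval -4.89 to -4.53) and -4.72 (-4.95 to -4.50). Cd83 was 3.46-fold and 4.44-fold lower, and Cd69 was 2.33-fold and 4.83-fold lower, from 743 to 319 CPM and from 1473 to 305 CPM. In all, 3 members were at least 2-fold lower with LPS+DSF than with LPS and none was 2-fold higher, where 19.5% of genes were lower and 20.3% higher. With IL-4+anti-CD40 it was 5 lower and 1 higher, where it was 20.3% and 21.9% of genes. The 1 higher was Icosl, from 51.5 to 138 CPM, and Cd44 went from 1196 to 330 CPM under IL-4+anti-CD40 and from 531 to 348 CPM with LPS. The log2 ratio of Fas was 0.95 and 0.34, and that of Cd274 0.20 (0.13 to 0.26) and 0.17 (0.09 to 0.25). For Cd69 the first experiment gave -0.01 and 0.19 in place of -1.22 and -2.27, and for Cd274 it gave 1.26 and 1.19. The difference between the experiments was not tested. Summed plasma cell markers were 185 CPM with LPS and 365 CPM with LPS+DSF in this experiment, and 171 and 335 CPM under IL-4+anti-CD40 without and with DSF. Erythroid markers were 30.1 and 74.7 CPM in the LPS arm and 27.2 and 64.6 CPM in the other, and dendritic cell markers 111 and 66.5 CPM and 111 and 46.1 CPM. B cell markers were 10714 and 8850.4 CPM, and 10131 and 8613 CPM. The marker sums of this experiment are not broken down by gene here, so they need not show a change in a cell type. Their part in the ratios was not tested.

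With ibrutinib at the same dose, none of the 10 members differed by 2-fold from its level with the stimulus alone, where 2.81% and 2.47% of genes were 2-fold higher and lower with LPS and 2.23% and 1.69% under IL-4+anti-CD40. The log2 ratios lay between -0.33 (Cd274) and 0.34 (Il2ra, 404 and 513 CPM) with LPS, and between -0.33 (Cd80) and 0.50 (Icosl, 51.5 and 72.7 CPM) under IL-4+anti-CD40. Cd83 was 2063 and 2139 CPM without and with ibrutinib under LPS, and 2274 and 2282 CPM under IL-4+anti-CD40. The summed B cell markers were 10714 CPM with LPS and 14496 CPM with LPS+ibrutinib, and 10131 and 14187 CPM under IL-4+anti-CD40. The T cell markers were 39.7 and 21.7 CPM, and 38.4 and 24.4 CPM. Their part in the ratios was not tested. Intervals for this experiment cover counting error only.

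**Figure D4:**
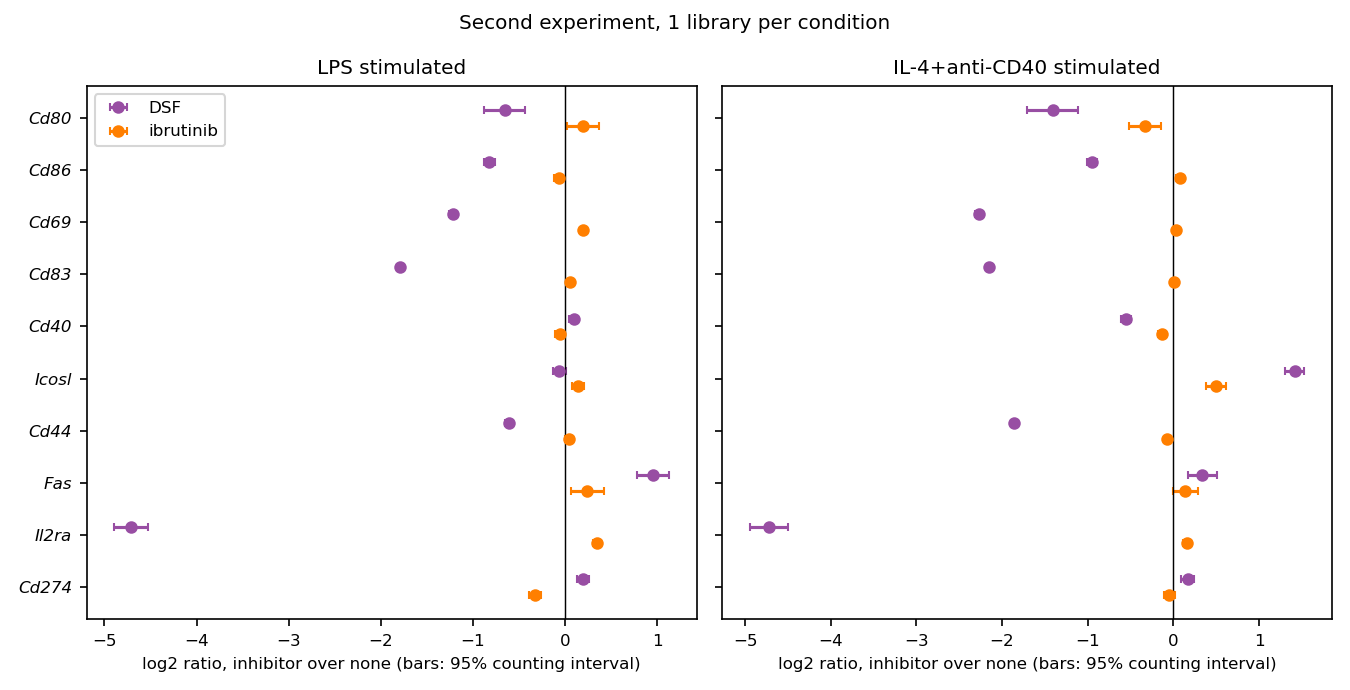
Log2 ratios of each member with an inhibitor over the same stimulus without it, in the second experiment, with 1 library per condition and bars for the 95% counting interval. DSF (purple) takes Il2ra to -4.71 and -4.72, while all ibrutinib values (orange) lie between -0.33 and 0.50.

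Lists of related genes were counted beside the members. Of 15 genes of the CD28 and B7 family and their receptors, 12 were tested with LPS, with 6 higher and 2 lower than in unstimulated cells, and under IL-4+anti-CD40 5 were higher and 2 lower of 12. With DSF 11 were tested under each stimulus, with 4 higher and 4 lower under LPS and 2 higher and 3 lower under IL-4+anti-CD40. The shares of all genes called in each comparison are those given beside the members' counts. Btla, an inhibitory receptor, fell with DSF from 556 to 244 CPM under LPS (-1.17 ± 0.05). Under IL-4+anti-CD40 its ligand gene Tnfrsf14 fell from 24.8 to 11.5 CPM (-1.17 ± 0.11), and Pdcd1lg2, which encodes the second PD-1 ligand, rose from 19.1 to 28.1 CPM (0.50 ± 0.08). Tigit rose by 1.90 ± 0.33 and Vsir fell by 1.09 ± 0.15 under IL-4+anti-CD40. With LPS, Nectin2 rose by 1.53 ± 0.42 and Icos fell by 1.94 ± 0.75, both from under 1 CPM, and Cd28, the receptor of CD80 and CD86, was 0.74 CPM with LPS and 1.39 CPM with LPS+DSF. Of 16 TNF family costimulatory genes, 12 were tested with LPS (6 higher, 2 lower) and 11 under IL-4+anti-CD40 (3 higher, 3 lower). With DSF it was 12 under LPS (3 higher, 6 lower) and 11 under IL-4+anti-CD40 (2 higher, 4 lower). Tnfrsf8, encoding CD30, rose from 1.49 to 14.0 CPM under IL-4+anti-CD40. Cd27, the receptor of CD70, fell from 5.53 to 2.14 CPM with LPS and to 1.36 CPM under IL-4+anti-CD40. Cd70 was 0.04 CPM in unstimulated cells, 0.71 CPM with LPS and 0.11 CPM with LPS+DSF, calls that rest on few reads. Tnfsf9, the 4-1BB ligand, rose from 1.05 to 3.52 CPM with DSF under IL-4+anti-CD40.

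All 22 adhesion and SLAM genes listed were tested. With LPS 5 were higher and 12 lower than in unstimulated cells, and under IL-4+anti-CD40 4 were higher and 14 lower, with more genes lower than higher. Icam1, a ligand of the integrin LFA-1, rose from 58.3 to 503 CPM with LPS and to 375 CPM under IL-4+anti-CD40. Cd22, an inhibitory coreceptor of B cells, fell from 703 to 153 CPM with LPS; it was 311 CPM in the first unstimulated pair and 1094 CPM in the second. Itgb7 fell from 146 to 14.8 CPM under IL-4+anti-CD40. With DSF the list was even, at 10 higher and 10 lower under LPS and 9 higher and 9 lower under IL-4+anti-CD40. Cd5 rose by 2.13 ± 0.14 log2 units under LPS, and Cd2 rose by 2.41 ± 0.19 under IL-4+anti-CD40. Of the 21 partners and regulators of the members, 20 were tested, with 8 higher and 6 lower with LPS and 7 higher and 6 lower under IL-4+anti-CD40. With DSF it was 7 higher and 6 lower under LPS and 8 higher and 6 lower under IL-4+anti-CD40. Traf1, which encodes a signalling adaptor of TNF receptors such as CD40, rose from 91.6 to 636 CPM with either stimulus.

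The genes whose levels ran most like each member over the 20 libraries are given as a description, since these libraries share 5 conditions. Cd69 and Cd40 were the nearest neighbours of each other (Pearson r 0.9927 of log2 CPM), and Cd40 was equally close to Nfkbia, which encodes the NF-κB inhibitor IκBα. Icosl ran with Traf5 (0.9948), Il2ra with Alpl (0.995), Cd83 with Abcf2 (0.996) and Cd86 with Odc1 (0.986). Cd44 was nearest to Marcks (0.9835), Fas to Srsf6 (0.9922), Cd274 to Dlgap4 (0.9874) and Cd80 to Bcl3 (0.9626).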

How the data were processed

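The authors cleaned reads using Fastp, aligned these to mm10 by HISAT2 2.0.5 and counted them per gene in featureCounts 1.5.0-p3. They deposited raw counts per gene and the FPKM they calculated from these counts and gene lengths. The annotation release and strand setting are not given in the sources used here. From the counts, 9 comparisons in the first experiment were tested with edgeR 4.0.16 in R 4.3.3 (quasi-likelihood, TMM, filterByExpr), with Benjamini-Hochberg adjustment over all genes tested and 0.05 as threshold. A comparison of 2 groups used its 8 libraries and the difference of DSF responses 16. The test was also run on data simulated for LPS+DSF against LPS and for the difference of DSF responses. These simulations held no unstimulated libraries, so they do not cover the comparisons against unstimulated cells. The SE is the absolute log2 fold change over the square root of F. The second experiment was compared as log2 ratios of TMM CPM (prior count 2) where the mean over its libraries reached 10 counts. CPM of groups were compared by the order of their libraries.

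Alternatives were total counts, DESeq2's size factors, DESeq2 1.42.0, 2 other filters, all 20 libraries in one fit, a minimum log2 fold change of 1, a replicate block and leaving out each library (80 fits); leaving out a pair of libraries was chosen after seeing the data. Members and lists were chosen with earlier results of these data known. Named genes were all members, their direct partners, the gene of each companion list with the largest change in each direction among those called, and the nearest patterns; 1 gene that this rule names is not reported here. All 10 members passed the filter on low counts in every comparison. All replicate pairs differed by more than sampling noise (chi-square per gene of at least 2.86). Promoters are RefSeq's on GRCm38.p6, and positions are those in the count tables.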

Additional observations from a re-analysis of the deposited data

Results flagged for a closer look

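Of 50 groups of 4 libraries, one for each member and group, 2 had a library far from the other 3, and chance flags about 1 group in 20. Cd83 in library 2 of IL-4+anti-CD40+DSF was 1758 CPM, where the others were 1885 to 1895 CPM. Cd274 in library 1 of LPS+DSF was 957 CPM, where the others were 903 to 910 CPM. The response to DSF differed between the stimuli, by the test of the difference itself, for 3 members: Cd44 (-1.17 on the log2 scale), Icosl (1.03) and Cd40 (-0.24).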

How the results depend on the processing

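The limits are the small groups, the pairs of libraries in the unstimulated and IL-4+anti-CD40 groups and the single libraries of the second experiment. Reads were also few for Cd80 and Fas in unstimulated cells, and for Il2ra in unstimulated libraries 3 and 4 (112 and 94 counts). Leaving out 1 library at a time left 750 of the member results on the same side of the threshold with the same sign, while 31 lost their call, 14 gained one and 5 changed sign. Leaving out a pair, chosen after seeing the data, gave 136, 6, 14 and 4. The cause of these changes was not tested. DESeq2 kept 88 member results, gained 1 call and turned 1.

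With total counts, LPS against unstimulated cells had 1 member lower in place of 0, as it had without unstimulated libraries 1 and 2, and 0 to 1 when 1 library was left out. Without unstimulated libraries 3 and 4, Icosl was 0.12 there. For LPS+DSF against LPS, total counts gave -0.13 for Cd40, and Cd69 was 0.00076 with DESeq2's size factors, 0.010 with at least 10 counts in every sample, and -0.060 to 0.0029 when 1 library was left out. Total counts turned Fas between the stimuli to 0.0042 without DSF and 0.029 with DSF.

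For the difference between the DSF responses, Cd83 was 0.013 with total counts, 0.031 with all 20 libraries in one fit, 0.099 without IL-4+anti-CD40 libraries 1 and 2 and -0.099 to 0.013 with 1 library left out. Fas was 0.024 with total counts, 0.00077 with DESeq2, 0.044 with all 20 libraries, 0.0012 without IL-4+anti-CD40 libraries 3 and 4 and -0.063 to 0.011 with 1 library left out. Cd274 was 0.0020 with all 20 libraries, 0.42 without IL-4+anti-CD40 libraries 3 and 4 and -0.21 to 0.089 with 1 library left out.

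Requiring a log2 fold change of at least 1 left 1 higher and 1 lower for LPS+DSF against LPS, 1 higher and 2 lower for the same step with IL-4+anti-CD40, 1 higher and 3 lower between the stimuli, 0 higher and 4 lower between them with DSF, 0 lower for LPS+DSF against unstimulated cells, and 1 lower for the difference of responses. With all 20 libraries in one fit, 2 members were lower for DSF with LPS, 3 lower with IL-4+anti-CD40, 1 higher between the stimuli, 0 higher and 4 lower between them with DSF, and 1 lower for the difference of responses. That last count was also 1 with total counts and with DESeq2's size factors and 1 to 2 with 1 library left out, and the count of higher members there was 2 without IL-4+anti-CD40 libraries 3 and 4. Between the stimuli, 1 member was higher without IL-4+anti-CD40 libraries 1 and 2, and 1 to 2 with 1 library left out. Of LPS+DSF against unstimulated cells, 0 to 1 were lower with 1 library left out. In the second experiment, 1 member was 2-fold higher with LPS+DSF when the minimum mean was 50 counts.

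The replicate block left 84 member results unchanged and added 6 calls. No source used here says whether same-numbered libraries share more than a number. Correlations of their deviations were from -0.056 to 0.169, the highest for IL-4+anti-CD40 with against without DSF. At most 2 of 4 libraries correlated best with their own number. Low correlations cannot exclude a shared source. With the block, Cd86 passed under IL-4+anti-CD40 (1.80, adjusted p 0.0371) and LPS+DSF (1.77, 0.0342) against unstimulated cells, as did Cd80 (0.55, 0.0467) and Il2ra (2.82, 0.0351) for IL-4+anti-CD40+DSF, Cd69 for DSF with IL-4+anti-CD40 (0.18, 0.0389) and Il2ra for the difference of responses (-0.33, 0.0451). All p-values in this section are edgeR's, adjusted by Benjamini-Hochberg.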
